A study of Mus musculus with 6 samples.

Results

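Expression of 40 genes of glucose breakdown and the response to low oxygen was described in 6 mouse pancreatic ductal adenocarcinoma cell lines. The genes came from a written list of symbols that was chosen with earlier results of these data known. Shares of the list set beside shares of all genes are therefore descriptive. All 40 were found among the 56953 genes of the count table. They comprise 24 genes of glycolysis and lactate handling, 4 of oxygen sensing and 12 that are known to be induced by hypoxia. The lines, KPC142, KPC180, KPC469, KPC490, KPC630 and KPC850, are labelled as pancreatic adenocarcinoma cells derived from the KPC mouse, a strain name used for a genetic model of pancreatic cancer. The labels give no allele, treatment, time, age or number of clones, and no culture density or oxygen level. The study's design text sets lines with low against lines with high recruitment of CD8+ T cells, but the labels assign no line to a class. Each line had 1 library, so no difference between lines could be tested. The values of the lines are therefore set side by side, and a replicate culture of the same line could differ from them. A lower level in a line may reflect fewer cells with the transcript or less of it per cell, and these cannot be told apart.

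Glycolysis converts glucose to pyruvate. Glucose enters through GLUT transporters, is trapped by hexokinase, is committed by phosphofructokinase and, after the later steps, leaves as lactate through lactate dehydrogenase and the monocarboxylate transporters. When oxygen is short, prolyl hydroxylases no longer mark the transcription factor HIF for destruction. HIF then raises many genes of this pathway, together with genes of pH control, blood vessel growth and collagen modification. Several steps have more than 1 gene, and tumours often favour particular versions, such as Hk2, Ldha and Slc16a3.

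Library totals ran from 16471558 to 18701274 counts. Gene values are given in CPM, which are counts scaled to the library total after adjustment of the totals by the TMM factors, and intervals are exact 95% intervals of counting error only. Of the epithelial markers, Krt8 had 843.3 to 4180 CPM and Krt19 837.2 to 2755 CPM, while Epcam had 0.243 to 10.5 CPM. All 7 fibroblast, 5 macrophage, 4 endothelial and 3 T cell markers stayed under 10 CPM in every line, and Dcn, Lum, Adgre1 and Cd4 had 0 counts. Of 4 acinar markers only Cela1 passed 10 CPM, with 20.6 CPM in KPC180, and Cpa1 had 0 counts. KPC469, the lowest line for many of the genes below, was lowest for 3 of the 8 epithelial markers (Krt7, Krt8 and Krt18) and highest for 1, Sox9 (43.4 CPM). Krt8 stood at 843.3 CPM in KPC469 and at 2393 to 4180 elsewhere, while Krt19 and Epcam were lowest in KPC180. The part of these markers in the results was not tested.

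Of the 40 genes, 33 reached 10 CPM in at least 1 line. A range of 4-fold or more between the highest and the lowest line was found for 10 of these 33, against 15.5% of all 10234 genes at that level. By role, 3 of 20 glycolytic genes had one (15%, close to the share of all genes), namely Pfkp, Aldoc and Slc16a3. Among the oxygen-sensing genes 2 of 4 did, Epas1 and Egln3, and among the hypoxia-inducible genes 5 of 9, Car12, Ndrg1, P4ha2, Ddit4 and Mxi1. The median ratio of highest to lowest line was 2.18 for the glycolytic and 4.62 for the hypoxia-inducible genes, and 1.91 for all genes at that level. Aldoc and Car12 reached 10 CPM in their 2 highest lines and Epas1 in 1, so for these 3 of the 10 genes a wide range was favoured by the choice of level. The smallest ratio among the 10 was that of Mxi1 (4.62) and the next gene below was Pfkl (3). Leaving out each line in turn gave 7 to 10 such genes, beside 11.5% to 14.3% of all genes. Among genes kept by the filterByExpr rule of edgeR there were 9 of 34 (all genes: 13.8%), and with no filter 13 of 40 (all genes: 20.4%).

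**Figure D1:**
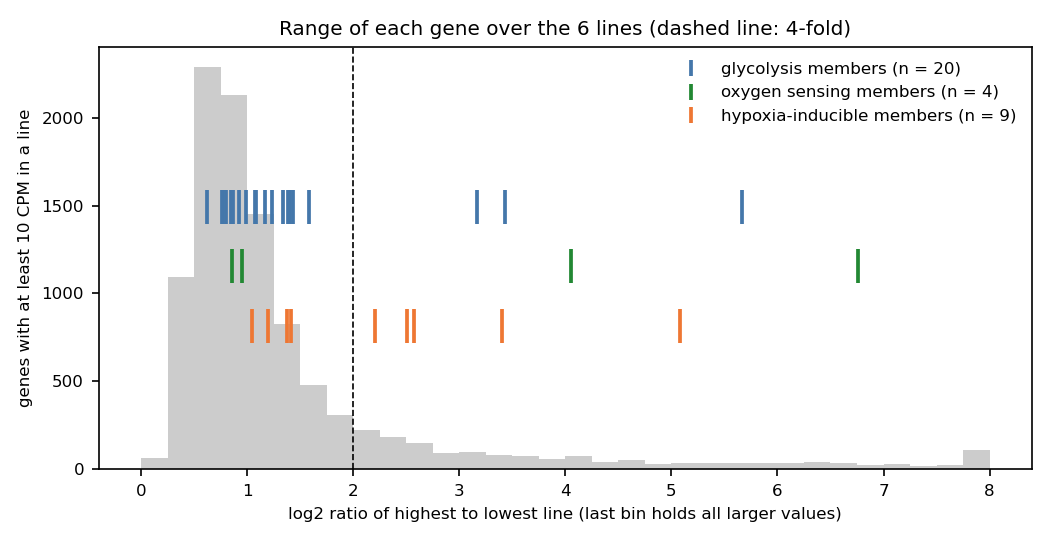
Histogram of the log2 ratio of highest to lowest line for the 10234 genes that reach 10 CPM somewhere (y axis: number of genes), with 1 tick for each listed gene at that level by role. The glycolytic ticks lie with the bulk of genes apart from Pfkp, Aldoc and Slc16a3, and 5 of the 9 hypoxia-inducible ticks lie past the dashed line at 4-fold.

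The list was highest most often in KPC490 and lowest most often in KPC469. KPC490 was the highest line for 15 of the 33 genes, against 15.3% of all genes, and the lowest for none of them, against 11.8%. KPC469 was the lowest line for 16, against 20% of all genes, 13 of them glycolytic. KPC469 was also highest for 4 (all genes: 21.4%). KPC180 was lowest for 8 (all genes: 16.5%) and KPC630 for 5 (13.6%), while KPC142 and KPC850 were lowest for 2 each (22.2% and 15.9%). KPC142 was highest for 5 (all genes: 18.2%), KPC850 for 4 (15%), KPC630 for 3 (14%) and KPC180 for 2 (16%).

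**Figure D2:**
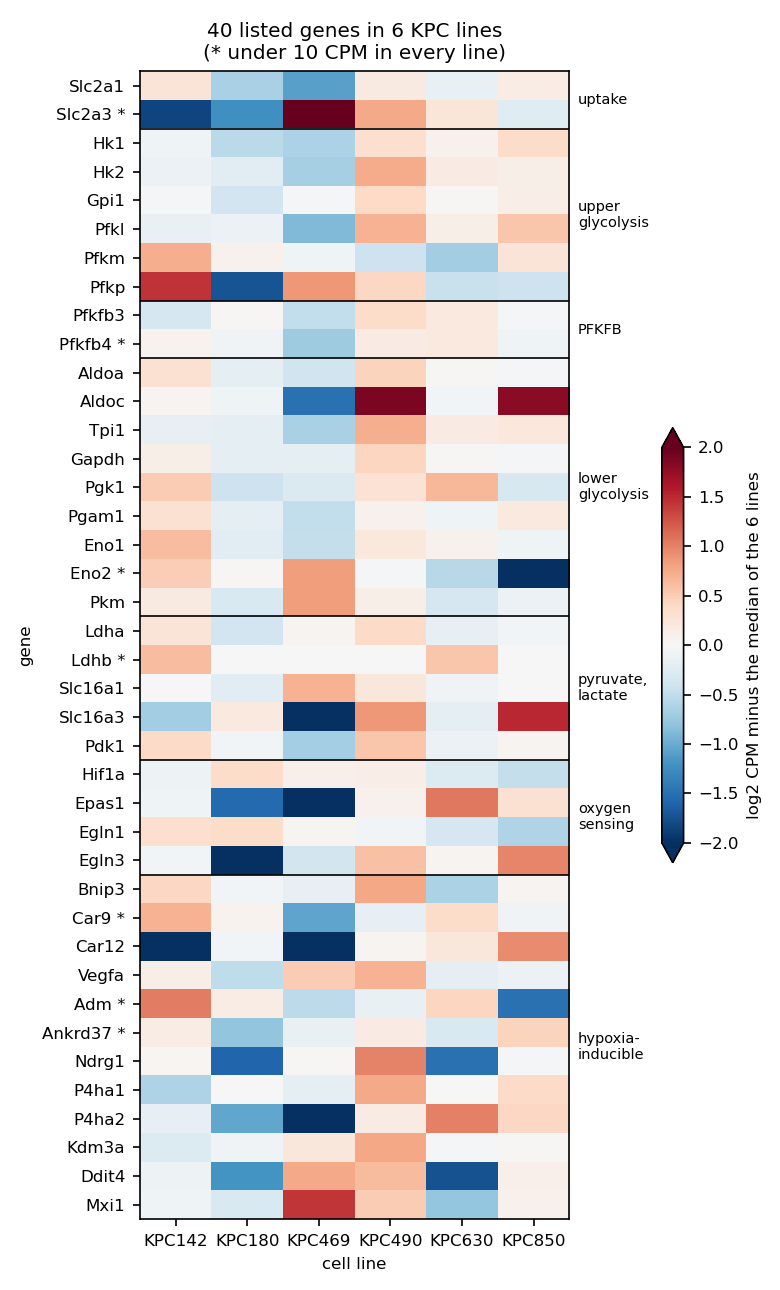
Heat map of the 40 genes (rows, by role) in the 6 lines (columns), coloured by log2 CPM minus the gene's median over the lines, with genes under 10 CPM in every line starred. The KPC490 column is above the median for 19 of 20 glycolytic and 9 of 9 hypoxia-inducible genes that reach 10 CPM, whereas the KPC469 column mixes low genes (Slc16a3, Aldoc, P4ha2, Car12) with high ones (Pkm, Slc16a1, Mxi1).

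HIF binds DNA at a core of ACGTG or GCGTG, and promoters of the listed genes were searched for it on both strands. RefSeq promoter windows on GRCm38.p6, of 250 bases before to 50 after a start, were found for 37 of the 40 genes, in 55 windows. A match lay in 42 of the 55 windows (76.4%), against 43.8% of all 32851 windows, without matching for base composition, and windows of 1 gene can overlap. The share was 77.8% for the glycolytic and 68.8% for the hypoxia-inducible genes. ACGTG read on the opposite strand is CACGT, so a palindrome CACGTG counts as 2 matches. The 250 bases before the start are shown for 3 genes whose level varied widely between the lines and for Ldha, which varied by 1.7-fold, to set the letters of both kinds side by side. Capitals mark the matches.
Slc16a3: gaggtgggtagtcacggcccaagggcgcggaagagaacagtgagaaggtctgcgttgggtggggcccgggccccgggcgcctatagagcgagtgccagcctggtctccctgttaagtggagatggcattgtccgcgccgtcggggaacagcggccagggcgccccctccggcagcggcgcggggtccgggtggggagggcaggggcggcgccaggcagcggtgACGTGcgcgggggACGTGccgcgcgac
Egln3: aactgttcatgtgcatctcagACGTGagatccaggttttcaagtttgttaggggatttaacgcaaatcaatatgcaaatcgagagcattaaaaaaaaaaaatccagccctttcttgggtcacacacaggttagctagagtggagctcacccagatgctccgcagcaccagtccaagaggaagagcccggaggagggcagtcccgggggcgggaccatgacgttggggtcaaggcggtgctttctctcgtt
P4ha2: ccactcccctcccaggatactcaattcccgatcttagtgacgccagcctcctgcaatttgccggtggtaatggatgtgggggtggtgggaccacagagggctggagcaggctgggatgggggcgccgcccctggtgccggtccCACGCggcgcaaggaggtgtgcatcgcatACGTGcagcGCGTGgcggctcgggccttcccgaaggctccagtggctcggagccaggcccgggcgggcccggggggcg
Ldha: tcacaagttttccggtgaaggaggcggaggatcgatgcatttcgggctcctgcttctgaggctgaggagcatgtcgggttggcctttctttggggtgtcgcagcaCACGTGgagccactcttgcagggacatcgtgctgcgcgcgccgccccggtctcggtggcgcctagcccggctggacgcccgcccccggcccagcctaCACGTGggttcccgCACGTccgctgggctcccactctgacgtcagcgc
The Slc16a3 stretch lies at chr11:120948817-120949066 on the plus strand, Egln3 at chr12:54203875-54204124 on the minus strand, P4ha2 at chr11:54100674-54100923 on the plus strand and Ldha at chr7:46845554-46845803 on the plus strand. Slc16a3 had matches beginning 27 and 14 bases before the start, Egln3 1 match 229 bases before it, and P4ha2 3 matches at 107, 78 and 69 bases. Ldha, with the narrow range, had the most, 5 matches in 3 places. Not every widely varying gene had a match. The Car12 window held 0, with a range of 33.9-fold, and Ndrg1 and Epas1 had no window. Pfkp, Aldoc, Ddit4 and Mxi1 had a match in a window. A match describes the letters only, and binding of HIF was not measured.

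Of the 2 listed glucose transporter genes, Slc2a1 held at least 98.3% of the sum per length. Slc2a1, which encodes the widespread transporter GLUT1, stood at 193.5 CPM in KPC142, 185.0 in KPC490, 180.6 in KPC850, 147.3 in KPC630, 104.3 in KPC180 and 76.9 in KPC469. The first 3 of these lines lay close together and KPC180 and KPC469 lay below, with a ratio of 2.52 (2.36 to 2.68) between the ends. Slc2a3, the gene of the high-affinity GLUT3, had 1.58 CPM in KPC469, 0.581 in KPC490, 0.373 in KPC630, 0.233 in KPC850, 0.0607 in KPC180 and 0 in KPC142, where the floor of 3 counts is 0.18 CPM.

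Both listed hexokinase genes were expressed everywhere. Hkdc1, which is not in the list, had 0.436 CPM in KPC469 to 9.58 in KPC490. Hk1, the housekeeping form, had 290.2 CPM in KPC850, 283.9 in KPC490, 239.8 in KPC630, 211.9 in KPC142, 155.5 in KPC180 and 146.1 in KPC469. Hk2, the form that is inducible by HIF and frequent in tumours, had 270.8 CPM in KPC490, 181.5 in KPC630, 175.6 in KPC850, 150.5 in KPC142, 140.6 in KPC180 and 102.3 in KPC469. Both were lowest in KPC469, with ratios of 1.99 (1.9 to 2.08) and 2.65 (2.51 to 2.8). KPC490 was highest for Hk2 and differed from KPC850 by 1.02-fold for Hk1. Scaled by transcript length, the ratio of Hk2 to Hk1 was largest in KPC490 (0.666, interval 0.64 to 0.694) and KPC180 (0.632, 0.597 to 0.669) and smallest in KPC850 (0.423, 0.404 to 0.442). The order of the lines does not depend on the lengths used. Which of the pair was the more abundant does: Hk1 held 60% to 70.3% of their sum with the length of the transcript with the longest coding sequence, but 42.3% to 53.6% with all exons merged.

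Among the listed genes of 8 families, with the length of the transcript with the longest coding sequence, phosphofructokinase was the 1 family whose most abundant gene per length differed between the lines. Pfkl, the liver form, had 238.8 CPM in KPC490, 216.4 in KPC850, 159.1 in KPC630, 136.7 in KPC180, 132.9 in KPC142 and 79.6 in KPC469. The muscle form Pfkm followed another order, with 162.7 CPM in KPC142, 117.3 in KPC850, 105.1 in KPC180, 92.4 in KPC469, 73.6 in KPC490 and 60.6 in KPC630. KPC490 was thus highest for Pfkl and second lowest for Pfkm. The platelet form Pfkp, common in cancer cells, varied most, at 157.4 CPM in KPC142, 105.9 in KPC469, 77.8 in KPC490, 43.4 in KPC850, 42.9 in KPC630 and 17.5 in KPC180. Its ratio of 8.98 (7.95 to 10.2) rested on KPC180, without which it was 3.67, and that of Pfkl was 1.8 without KPC469 in place of 3. Per length, Pfkp held 29.2% of the 3 genes' sum in KPC142, 32.3% in KPC469 and 5.47% in KPC180. Pfkl held 47.4% to 59.1% in KPC180, KPC490, KPC630 and KPC850 but 27% to 27.4% in KPC142 and KPC469. Pfkm held 47.2% in KPC180, where its ratio to Pfkl was 0.996 (0.935 to 1.06). Pfkm was the largest of the 3 in KPC142 (43.4%) and KPC469 (40.6%). The name of the leading gene in a line changed with the lengths used, whereas the order of the lines in the ratio of any pair does not depend on them. The ratio of Pfkp to Pfkl was 1.2 (1.12 to 1.28) in KPC469 and 1.07 (1.01 to 1.13) in KPC142, against 0.115 (0.102 to 0.131) in KPC180 and 0.18 to 0.293 in the other 3 lines. Pfkp shares 748 exon bases with Pitrm1 on the opposite strand. The libraries were made with a stranded kit, but whether strand was used in counting is not given in the sources used here, so reads of the 2 genes may not be fully separated.

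**Figure D3:**
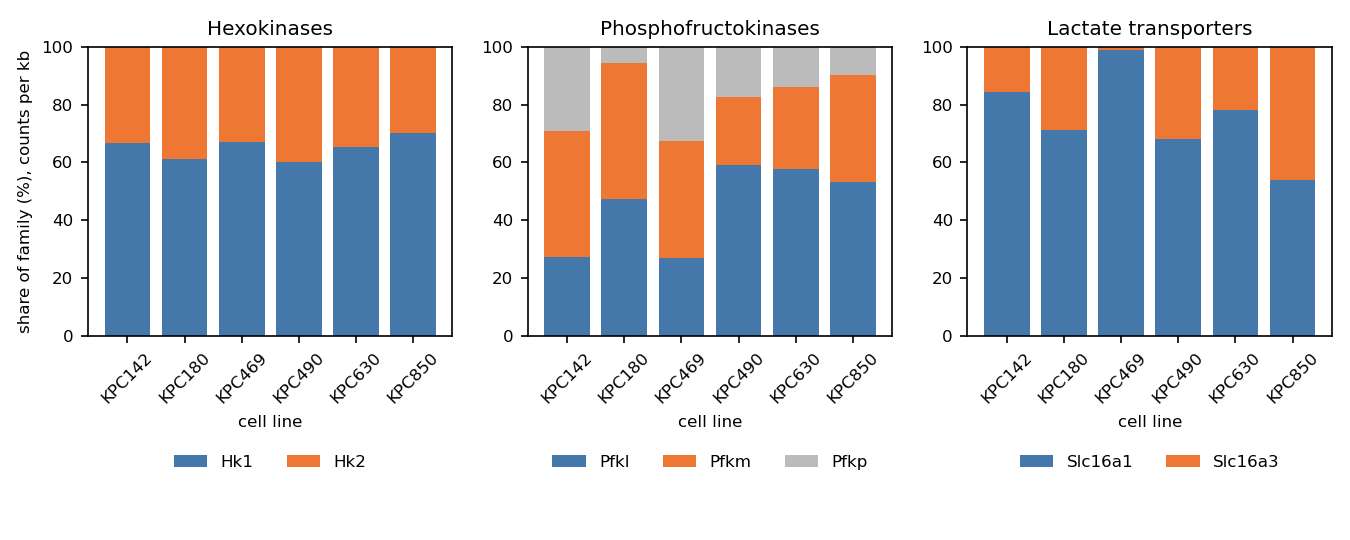
Stacked bars of the share (%) of each gene in the length-scaled counts of its family in each line, for hexokinases, phosphofructokinases and lactate transporters. Hk2 holds 29.7% to 40% of the hexokinase pair, Pfkp ranges from 5.47% in KPC180 to 32.3% in KPC469, and Slc16a3 from 1.03% in KPC469 to 46% in KPC850.

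Gpi1, which isomerizes glucose phosphate, was even, from 306.1 CPM in KPC180 to 524.9 in KPC490. The Pfkfb genes encode bifunctional enzymes that set the level of a sugar phosphate that activates phosphofructokinase. Pfkfb3, the form with the strongest kinase activity, had 28.8 CPM in KPC490, 25.5 in KPC630, 22.7 in KPC180, 21.8 in KPC850, 17.6 in KPC142 and 15.8 in KPC469. Pfkfb4 had 5.91 CPM in KPC630, 5.81 in KPC490, 5.39 in KPC142, 4.92 in KPC180, 4.84 in KPC850 and 3.11 in KPC469. Pfkfb3 held 83.7% to 88.9% of the sum of this pair per length, but Pfkfb2, which is not in the list, exceeded Pfkfb3 per length in KPC142, KPC180, KPC469 and KPC850.

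At the aldolase and enolase steps the same listed gene led in every line. Aldoa, the main aldolase, had 1196 CPM in KPC490, 1089 in KPC142, 896.3 in KPC630, 857.1 in KPC850, 762.6 in KPC180 and 664.9 in KPC469. Aldoc, the brain-type aldolase, was less even. It had 32.2 CPM in KPC490 and 30.3 in KPC850, against 8.99 in KPC142, 8.31 in KPC630, 8.19 in KPC180 and 3 in KPC469. The ratio of 10.8 (8.14 to 14.5) was 3.93 without KPC469. Aldoc nevertheless made up at most 1.93% of the aldolase pair per length. Eno1, the general enolase, had 2304 CPM in KPC142, 1745 in KPC490, 1615 in KPC630, 1418 in KPC850, 1296 in KPC180 and 1087 in KPC469, with a ratio of 2.12 (2.08 to 2.16). Eno2, the neuronal enolase, had 3.7 CPM in KPC469, 2.88 in KPC142, 2.06 in KPC180, 1.97 in KPC490, 1.33 in KPC630 and 0.175 in KPC850, where it rests on 3 counts.

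The genes of the other late steps differed by 2.62-fold or less. Tpi1 (triosephosphate isomerase) had its lowest level in KPC469, 525.2 CPM, and its highest in KPC490, 1374, and Gapdh lay between 4291 and 6621 CPM in the same lines. Pgk1, the phosphoglycerate kinase gene on chromosome X, had 1433 CPM in KPC630, 1285 in KPC142 and 1107 in KPC490, against 677.9 to 741.5 in the other 3 lines. Pgam1 (phosphoglycerate mutase) lay between 244.3 in KPC469 and 425.2 in KPC142. Pkm, which makes pyruvate, was highest in KPC469 at 6854 CPM, against 4372 in KPC142, 4166 in KPC490, 3584 in KPC850, 3119 in KPC180 and 3046 in KPC630. Its ratio of 2.25 (2.23 to 2.27) was 1.44 without KPC469. The M1 and M2 splice forms of Pkm cannot be told apart in counts per gene. The 24 glycolytic genes together took 2.09% of all counts in KPC490, 1.95% in KPC142, 1.74% in KPC469, 1.64% in KPC850, 1.63% in KPC630 and 1.36% in KPC180. KPC142 and KPC490 alone exceeded KPC469 in this sum, although KPC469 was lowest for 13 of the 20 glycolytic genes that reach 10 CPM. Pkm alone made up 0.681% of the counts of KPC469.

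Of the 2 listed lactate dehydrogenase genes only Ldha was above the floor. Ldha, whose product favours making lactate, had 1956 CPM in KPC490, 1791 in KPC142, 1564 in KPC469, 1439 in KPC850, 1346 in KPC630 and 1152 in KPC180, a ratio of 1.7 (1.67 to 1.73). Ldhb, whose product favours the reverse reaction, had 1 count in KPC142, 1 in KPC630 and 0 in the other 4 lines. A count of 0 allows up to 0.182 CPM in KPC180, the highest floor of those lines. Pdk1, whose kinase slows the use of pyruvate by mitochondria, was lowest in KPC469 (62.6 CPM) and highest in KPC490 (147.3 CPM).

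Of the 20 glycolytic genes at 10 CPM, Slc16a3 (ENSMUSG00000025161, chromosome 11) had the widest range. It encodes MCT4, the lactate exporter of strongly glycolytic cells, and had 228.8 CPM in KPC850, 146.4 in KPC490, 91.8 in KPC180, 70.7 in KPC630, 49.4 in KPC142 and 4.52 in KPC469. KPC469 stood 10.9-fold below the next line. The ratio of highest to lowest line, 50.6 (40.7 to 63.7), was 4.63 without KPC469 and 32.4 without KPC850. Slc16a1, the gene of the transporter MCT1, which carries lactate in or out, had 445.5 CPM in KPC469, 320.1 in KPC490, 274.3 in KPC850, 273.5 in KPC142, 260.1 in KPC630 and 234.4 in KPC180. KPC469 was thus last for the exporter and first for Slc16a1. Per length, the ratio of Slc16a3 to Slc16a1 was 0.852 (0.816 to 0.889) in KPC850, 0.467 (0.445 to 0.49) in KPC490, 0.4 (0.376 to 0.424) in KPC180, 0.278 in KPC630, 0.184 in KPC142 and 0.0104 (0.00825 to 0.0129) in KPC469. With the median transcript length Slc16a3 was the larger of the pair in KPC180, KPC490 and KPC850. Bsg, which encodes the chaperone that brings both transporters to the surface, varied by 1.63-fold.

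Of the 4 oxygen-sensing genes, Hif1a and Egln1 were highest in KPC180 and lowest in KPC850, Egln3 was highest in KPC850 and lowest in KPC180, and Epas1 had its ends in KPC630 and KPC469. Hif1a, the main oxygen-regulated subunit, whose control is largely at the protein level, ran from 183.7 CPM in KPC850 to 332.6 in KPC180. Epas1, the gene of the second such subunit, had 13.6 CPM in KPC630, 8.04 in KPC850, 6.85 in KPC490, 6.11 in KPC142, 2.12 in KPC180 and 0.817 in KPC469. Its ratio of 16.6 (9.88 to 30.1) was 6.39 without KPC469 and 9.84 without KPC630. Egln1, the main prolyl hydroxylase, ran from 54.5 CPM in KPC850 to 106.0 in KPC180, with 103.7 in KPC142.

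Egln3 (ENSMUSG00000035105, chromosome 12), a prolyl hydroxylase that HIF itself induces, had the widest range of the 33 genes. It stood at 65.5 CPM in KPC850, 49.7 in KPC490, 34.3 in KPC630, 32.1 in KPC142 and 25.8 in KPC469, but at 0.607 CPM (10 counts) in KPC180. The 5 other lines lay within 2.54-fold of each other and KPC180 was 42.5-fold below the lowest of them. The ratio of highest to lowest line was 108.0 (58.5 to 225.8). KPC180 also had the highest Hif1a and, by only 1.02-fold over KPC142, the highest Egln1. The Egln3 promoter shown above holds 1 match to the HIF core.

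**Figure D4:**
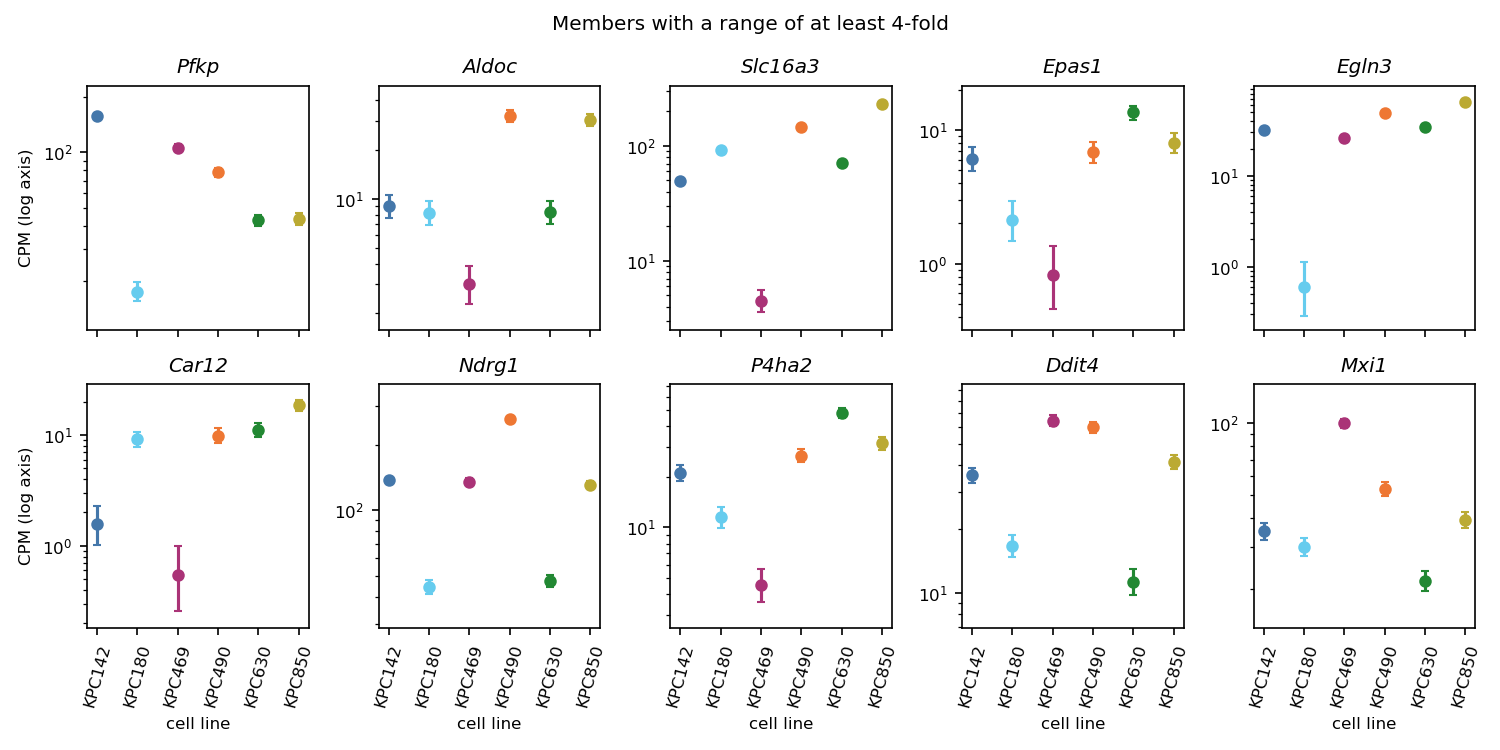
CPM (log axis, scales differ between panels) in each line for the 10 genes with a range of 4-fold or more, as points with exact Poisson 95% intervals of counting error. KPC180 stands apart for Egln3 and is lowest for Pfkp, while KPC469 is lowest for Aldoc, Slc16a3, Epas1, Car12 and P4ha2 and highest for Ddit4 and Mxi1.

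The hypoxia-inducible genes did not order the lines in 1 way. Ndrg1, a stress-responsive gene often used as a marker of HIF activity, had 264.0 CPM in KPC490, 136.9 in KPC142, 135.2 in KPC469, 130.2 in KPC850, 47.3 in KPC630 and 44.2 in KPC180. KPC490 was alone at the top and KPC180 and KPC630 formed the bottom. The ratio of 5.97 (5.52 to 6.46) was 3.09 without KPC490. P4ha2, a subunit of the enzyme that hydroxylates collagen, put KPC630 first, with 47.9 CPM against 31.7 in KPC850, 26.8 in KPC490, 21.2 in KPC142, 11.5 in KPC180 and 4.52 in KPC469. Its ratio of 10.6 (8.46 to 13.4) was 4.16 without KPC469 and 7.01 without KPC630. The sister gene P4ha1 ran only from 23.7 in KPC142 to 61.5 in KPC490.

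Ddit4 and Mxi1, which restrain mTORC1 and MYC, were highest in KPC469. Ddit4 had 64.5 CPM in KPC469, 60 in KPC490, 41.2 in KPC850, 35.8 in KPC142, 16.7 in KPC180 and 11.3 in KPC630, and KPC469 and KPC490 differed by 1.08-fold. Mxi1 had 99.9 CPM in KPC469, 52.9 in KPC490, 39.1 in KPC850, 35.1 in KPC142, 30.1 in KPC180 and 21.6 in KPC630. Both genes had the same order of lines, with KPC180 and KPC630 at the bottom. Their ratios were 5.69 (4.91 to 6.61) and 4.62 (4.15 to 5.16), and that of Mxi1 was 2.45 without KPC469. Without KPC630 both fell below 4-fold, to 3.87 for Ddit4 and 3.32 for Mxi1.

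Car9 and Car12 encode carbonic anhydrases, which balance pH at the cell surface. Car9, a standard marker of hypoxia, had 0.381 to 1.56 CPM. Car12 had 18.5 CPM in KPC850, 11.1 in KPC630, 9.87 in KPC490, 9.16 in KPC180, 1.56 in KPC142 and 0.545 in KPC469. KPC142 and KPC469 lay apart from the other 4 lines, and the ratio of 33.9 (18.2 to 71.4) was 11.9 without KPC469 and 20.3 without KPC850. Adm, which encodes the vasodilator peptide adrenomedullin, had at most 0.539 CPM, and Ankrd37 had 0.728 to 1.87 CPM. On the opposite strand Car9 shares 214 exon bases with Gm12454 (226 counts over all lines). Ankrd37 likewise shares 57 with Ufsp2 (2988 counts). As for Pfkp, reads of these genes and their neighbours may not be fully separated.

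Vegfa, the angiogenic factor, ran from 80.2 CPM in KPC180 to 183.8 in KPC490. Kdm3a, a histone demethylase, had its top value of 120.2 CPM in KPC490 and 58 to 81.5 CPM elsewhere. Bnip3, a mitophagy receptor, ran from 12.8 in KPC630 to 34.2 in KPC490. All 9 hypoxia-inducible genes at 10 CPM or more differed by at least 2.07-fold, where 45.1% of all genes reached 2-fold.

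Measured as log2 CPM minus each gene's median over the lines, the median of the 20 glycolytic genes was 0.39 in KPC490, 0.15 in KPC142, 0.08 in KPC850, -0.02 in KPC630, -0.21 in KPC180 and -0.48 in KPC469. KPC490 was above the gene's median for 19 of the 20 genes, and KPC180 and KPC469 were below it for 17 and 16. For all genes at 10 CPM these medians lay between -0.01 and 0.01. The 9 hypoxia-inducible genes had 0.69 in KPC490, 0.08 in KPC850, 0.03 in KPC469, -0.10 in KPC142, -0.20 in KPC630 and -0.30 in KPC180. KPC490 was the first line for both, but KPC469, last for glycolysis, was in the middle for the hypoxia-inducible genes, where 5 of them lay above their median and 4 below. With the mean in place of the median the hypoxia-inducible value in KPC469 was -0.41, and Car12 and P4ha2 had the lowest deviations there.

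**Figure D5:**
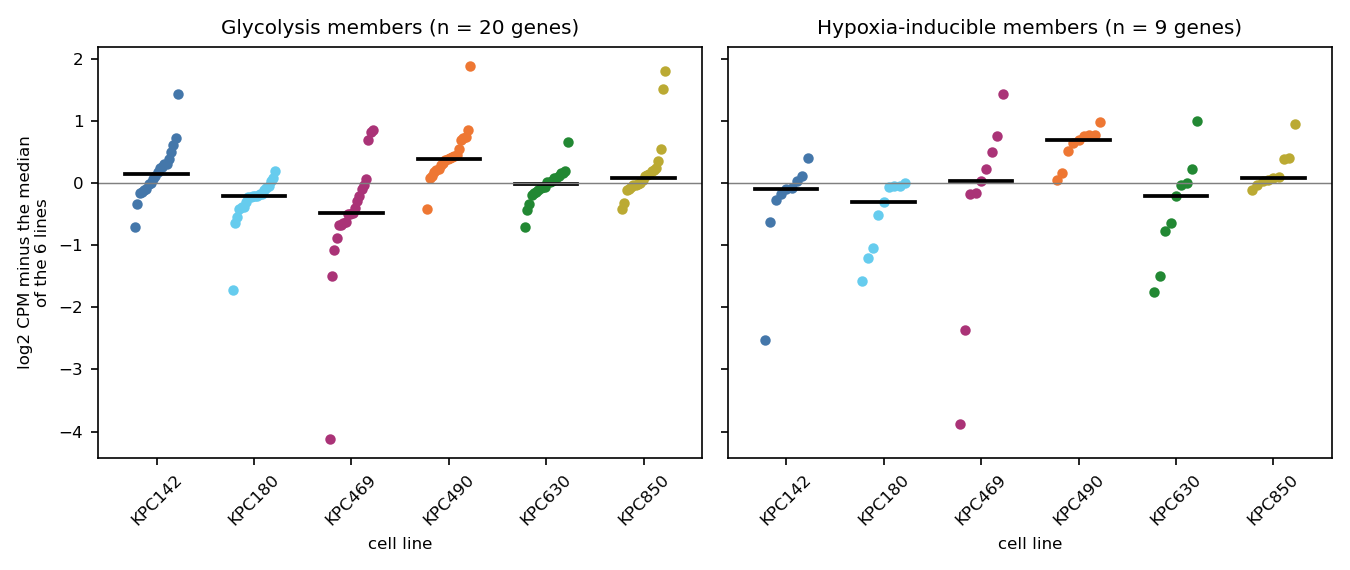
Deviation of each gene (points) from its median over the lines, in log2 CPM, for 20 glycolytic genes (left) and 9 hypoxia-inducible genes (right), with black bars at the median of each line. The bars are highest in KPC490, at 0.39 and 0.69, and KPC469 shows the widest scatter.

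Several of these genes lie on chromosomes whose genes as a whole were shifted in a line. In KPC490 the median of all genes was 0.34 on chromosome 10, which holds Hk1, Pfkl, P4ha1 and Ddit4, and 0.28 on chromosome 6, which holds Hk2, Tpi1, Gapdh and Kdm3a. In KPC142 it was 0.52 on chromosome 4, where Slc2a1 and Eno1 had deviations of 0.25 and 0.61. In KPC850 it was -0.46 on chromosome X, where Pgk1 had -0.32. In the same line it was -0.25 on chromosome 8 (Egln1: -0.60) and -0.33 on chromosome 12 (Hif1a: -0.48, Egln3: 0.98). In KPC180 it was 0.34 on chromosome 8 (Egln1: 0.36) and 0.07 on chromosome 12 (Hif1a: 0.37, Egln3: -5.53). In KPC469 it was -0.26 on chromosome 4 (Slc2a1: -1.08, Eno1: -0.48) and 0.25 on chromosome 13 (Pfkp: 0.86). On chromosome 6 it was -0.21 in that line (Hk2: -0.67, Tpi1: -0.65, Gapdh: -0.20, Kdm3a: 0.22). In KPC630 it was 0.29 on chromosome X (Pgk1: 0.66) and -0.27 on chromosome 13 (Pfkp: -0.44). After subtraction of the chromosome medians the KPC490 values were 0.33 for the glycolytic and 0.51 for the hypoxia-inducible genes, and the glycolytic value in KPC469 was -0.45. Slc16a3, Aldoc and P4ha2, which had wide ranges, lie on chromosome 11, whose medians were -0.25 to 0.12. A chromosome median does not describe the place of a single gene. The part of such shifts in the levels of the genes was not tested.

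Of 76 further genes of the same pathways, 46 reached 10 CPM in a line. The wide range was found for 3 of 18 glycolytic ones and for 11 of 28 hypoxia genes, beside 15.5% of all genes. Pklr, the liver and red cell pyruvate kinase, had 87.7 CPM in KPC850, 41.1 in KPC180, 41 in KPC142, 18 in KPC490, 9.48 in KPC630 and 5.28 in KPC469. Eno3, the muscle enolase, had 145.1 CPM in KPC850, 114.4 in KPC490, 86.8 in KPC142, 60.3 in KPC469, 49.2 in KPC180 and 25.4 in KPC630, which per length was 0.0204 to 0.133 of Eno1, while Eno2 made up at most 0.247% of the sum of Eno1 and Eno2. Pdk3, a pyruvate dehydrogenase kinase, ran from 5.04 in KPC180 to 22.5 in KPC142.

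Among the hypoxia genes with a wide range, Ak4 and Stc2 had low levels in some lines. Ak4, a mitochondrial adenylate kinase, had 0.659 CPM (11 counts) in KPC142 and 27.9 to 65.3 CPM in the others. Stc2, a secreted glycoprotein, stood at 161.7 CPM in KPC469, at 94.3 in KPC490 and at 35.2 to 39.8 in KPC850 and KPC630, but at 2.64 in KPC142 and 2.85 in KPC180. Hilpda, a lipid droplet protein gene, ran from 13.1 in KPC469 to 83.8 in KPC490. Wide ranges were also found for Igfbp3 (7.15-fold), Loxl2 (6.04-fold), Bhlhe41 (5.98-fold), Plod2 (4.46-fold), Plod1 (4.41-fold), Angptl4 (4.26-fold) and Bhlhe40 (4.12-fold).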

How the data were processed

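Libraries of 6 lines were made from total RNA with a stranded mRNA kit, per the labels' protocols. Trimmomatic 0.36, RSEM 1.3.3, STAR 2.7.10b and build GRCm39 are listed, per the submitters' processing notes, without role or order. Expected counts per Ensembl gene were deposited by the authors and rounded here to whole numbers. Symbols from GENCODE vM21 (GRCm38) matched 52029 of 56953 identifiers. Aldoa has a second identifier with at most 0.871 CPM that was not used.

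TMM factors came from edgeR 4.0.16 in R 4.3.3, log2 CPM used a prior count of 2, and other calculations used Python 3.11.15. The labels put no line in a class and give 1 library per line, so the quasi-likelihood test of edgeR had no contrast. Genes counted had at least 10 CPM in at least 1 line. Ratios carry exact conditional binomial 95% intervals, which cover counting error only. A line at 0 was set to a floor of 3 counts. Lengths are those of the transcript with the longest coding sequence. Near-identical copies (blastn 2.17.0, at least 90% identity over 200 bases) held at most 0.37% of a listed gene's counts (Gapdh). The ratio calculation was tested on data simulated with counting error only. The intervals were tested there for a fixed pair of lines, not for the highest and lowest line. The genes and lists were chosen with earlier results of these data known. All listed genes are covered: values in each line for paralog families and for ranges of 4-fold or more, and ends of the range for most others, with related genes named at 10 CPM and 4-fold. The values of 1 related gene that met this rule are not reported here. Alternatives were DESeq2 1.42.0 size factors, library totals, other filters, lengths, prior counts and lines left out.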

Additional observations from a re-analysis of the deposited data

Results flagged for a closer look

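Egln3 in KPC180 was the 1 value, among 33 genes that reach 10 CPM, at which a single line lay far from the other 5: the gap of its log2 CPM to the nearest line was more than 0.625 of the whole range. It stood at 0.607 CPM, against 25.8 to 65.5 CPM in the other lines. In replicates of 1 group chance marks about 1 in 20 sets. The 6 lines are not replicates, and 6.69% of all genes at that level were marked in the same way.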

How the results depend on the processing

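A range of 4-fold or more was found for 10 of 33 listed genes (all genes: 15.5%). A range of 2-fold or more was found for 23 of 33 (all genes: 45.1%). At 4-fold the number was 13 of 40 with no filter (all genes: 20.4%) and 9 of 34 with filterByExpr (13.8%). With a line left out it was 7 to 10 (all genes: 11.5% to 14.3%). It was 10 under both other scalings and with near-identical copies added. With the mean over genes in place of the median, the glycolytic value in KPC850 was 0.21, and the hypoxia-inducible values were -0.36 in KPC142, -0.53 in KPC180, -0.41 in KPC469, -0.41 in KPC630 and 0.21 in KPC850. With no filter the hypoxia-inducible values were -0.19 in KPC180, -0.15 in KPC469 and 0.58 in KPC490. After subtraction of chromosome medians they were 0.51 in KPC490 and -0.32 in KPC630. Without KPC469, a setting chosen after seeing the data, they ran from -0.22 to 0.74 over the other 5 lines, with 0.00 in KPC142 and -0.09 in KPC630. Differences under 0.1 log2 were counted as no change, since no replicate gives a spread. The same leading gene in all 6 lines was found for 7 of 8 families, and for 6 to 7 under the other lengths and gene sets. No paired analysis was possible because each line has 1 library and no replicate number. Depth limits Ldhb, Adm, Eno2, Slc2a3 and Car9, which had few counts in each library.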
